A study of Mus musculus with 31 samples.

Results

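Etv2+/Δ yolk sacs, which carry 1 wild-type copy of Etv2 and 1 null copy, were compared with Etv2+/+ yolk sacs, which carry 2 wild-type copies, across all 18477 genes of the deposited table. The comparison asked whether loss of 1 copy alters the transcriptome, that is, whether Etv2 is haploinsufficient in this tissue. Its members were chosen by the genotype in the labels and by no measured value: 6 Etv2+/Δ and 6 Etv2+/+ libraries, 12 of the 31 libraries in the series. Each library was made from total RNA of a single mouse yolk sac at E8.5, the yolk sacs came from somite-matched embryos with littermate controls, and the labelled strain of all of them was mixed. The Δ allele lacks exons 4 and 5, which encode the DNA-binding domain, and was made from a floxed allele with Mef2c-AHF-Cre, which is active in the anterior heart field and was used here to delete the exons in the germline, so that the allele is null in every cell. The other groups used below were Etv2enhΔ/enhΔ, in which both copies lack an upstream enhancer of Etv2, Etv2enhΔ/Δ, which combines the enhancer deletion with the null allele, Etv2Δ/Δ, which has 2 null copies, and Etv2+/enhΔ, with 1 enhancer deletion.

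Etv2 is a transcription factor of the Ets family that is made for a short time in mesoderm, and in the mouse it is needed for the first endothelial and blood cells of the yolk sac. There, endothelium lines the vessels of the forming plexus, and primitive red cells mature under Tal1, Gata1 and Klf1 while making embryonic globins. Visceral endoderm, which makes apolipoproteins and other serum proteins, and extraembryonic mesoderm form most of the remaining tissue.

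Etv2 lies on the minus strand of chromosome 7 at chr7:31418635-31421308 (NCBIM37, mm9). Exon 5 is shown because it is 1 of the 2 exons that the Δ allele lacks, and it lies within the region that the genotyping primers Etv2-I3F and Etv2-I5R bracket. It is 113 bases long, at chr7:31419008-31419120, and reads on the coding strand, with no part in capitals:
Etv2 exon 5: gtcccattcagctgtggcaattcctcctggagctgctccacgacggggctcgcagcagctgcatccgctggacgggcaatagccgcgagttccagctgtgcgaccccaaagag
The primers bracket 1401 bases of the reference, in which exons 4 and 5 with the intron between them take 1101. The forward primer lies in front of exon 4, the reverse primer lies past exon 5, and a further primer lies within exon 4:
Etv2-I3F: cacactagagctgagttcagacc
Etv2-I5R: ggaccagggtcttagctgc
Etv2-E4R3: atgtggctctatcagactgcttg

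Values were deposited as log2(CPM + 1), where CPM is the counts of a gene scaled to a normalised size of its library, which differs from the read total. Between 5718619 and 14700743 reads were recovered per Etv2+/+ library and between 4040098 and 21815594 per Etv2+/Δ library. The group means did not differ beyond the spread of the libraries (exact permutation test over the libraries, two-sided, p = 0.318). That test compares means only, and no Etv2+/Δ library lay within the Etv2+/+ range. Etv2+/Δ replicates 2 and 3 lay below it, at 4040098 and 5052984 reads. The other Etv2+/Δ libraries lay above it, at 15251029 reads or more. Reads of mitochondrial genes took 9.69 to 16.5% of the Etv2+/+ libraries and 7.18 to 24.6% of the Etv2+/Δ libraries (exact permutation p = 0.727). Etv2+/Δ replicates 2 and 3, with the fewest reads of the 12 libraries, also had the 2 highest mitochondrial shares, above every Etv2+/+ library. The other Etv2+/Δ libraries held 7.18 to 10.7%. Apob, an apolipoprotein of visceral endoderm, was at 21230 CPM or more in each Etv2+/+ library and at 19295 CPM or more in each Etv2+/Δ library, and the endothelial marker Cdh5 and the embryonic globin Hbb-y were also read in all 12. Labels gave 1 male of 6 Etv2+/+ and 2 males of 6 Etv2+/Δ yolk sacs, but the 2 Etv2+/Δ libraries labelled male, replicates 2 and 3, held 504 and 645 CPM of Xist and at most 0.258 CPM of the 4 Y-linked genes. Etv2Δ/Δ replicates 1 and 2, also labelled male, held 434 and 443 CPM of Xist and no read of those genes, and they entered the fit of all 31 libraries with their labelled sex. A further division ran along the comparison: the ferritin pseudogene Ftl2-ps had reads in Etv2+/+ replicates 2 to 6 and almost none in Etv2+/+ replicate 1 or in any Etv2+/Δ library. This division did not follow the Δ allele in the other genotypes. Etv2+/enhΔ replicates 2 to 4 held 44.0 to 50.2 CPM of Ftl2-ps. Etv2+/enhΔ replicate 1 and all Etv2enhΔ/enhΔ libraries, which have no Δ allele, held at most 0.471 CPM. Processing batches are mentioned in the study's methods but are not in the labels, so that batch and genotype cannot be told apart here.

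The Etv2 row, which also counts transcript of the Δ allele, had few reads. It was higher, not lower, in yolk sacs that had lost 1 copy. In Etv2+/+ replicates 1 to 6 it stood at 0.181, 0, 0.491, 0, 0 and 0.348 CPM, which came to 10 reads in all. In Etv2+/Δ replicates 1 to 6 it stood at 0.729, 1.55, 1.38, 0.869, 1.13 and 3.59 CPM, 120 reads in all. The groups did not overlap: every Etv2+/Δ library was above every Etv2+/+ library. A library at 0 allows up to 3 reads, which is 0.203 to 0.375 CPM in the 3 Etv2+/+ libraries without reads. Means were 0.170 ± 0.210 CPM (SD, n = 6) and 1.54 ± 1.05 CPM (SD, n = 6), a difference of 1.37 CPM with an exact two-sided permutation p of 0.00216, the smallest that the 924 assignments of 6 against 6 allow. Across all genes, limma gave a difference of 1.03 in log2(CPM + 1) (SE 0.26) with an adjusted p of 0.360, so that Etv2 was not called. Read totals of the remaining genotypes divided by the Δ allele. Etv2+/enhΔ libraries held 4 reads and Etv2enhΔ/enhΔ libraries held 8, with at most 0.388 CPM in any of them. Etv2enhΔ/Δ libraries held 92 reads and Etv2Δ/Δ libraries held 84, at 0.220 to 2.98 CPM and 0.220 to 2.52 CPM. Single libraries did not all follow the totals, since Etv2enhΔ/Δ replicate 3 and Etv2Δ/Δ replicate 3, both at 0.220 CPM, lay below Etv2+/+ replicates 3 and 6 and below the highest Etv2enhΔ/enhΔ library. Etv2Δ/Δ has 2 null copies, so that its 84 reads are transcript of the Δ allele. The table counts reads per gene and not per exon, so that in Etv2+/Δ transcript from the wild-type copy and from the deleted copy cannot be told apart. By qPCR of embryos, the study describes Etv2 expression that falls across its genotypes. The reverse primer of that qPCR matches bases within exon 5, which the Δ allele lacks. The qPCR therefore does not measure transcript of the Δ allele, which the Etv2 row counts, and these measures are not alike.

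**Figure D1:**
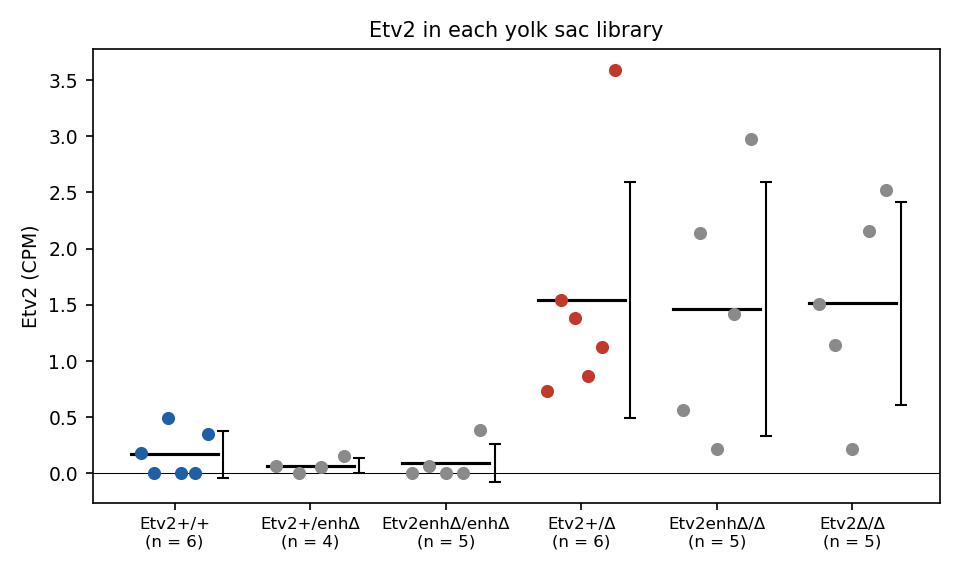
Etv2 in CPM in each of the 31 yolk sac libraries, by genotype, with points for libraries, horizontal lines for group means and bars for 1 SD. The 6 Etv2+/Δ libraries sit between 0.729 and 3.59 CPM, all above the 6 Etv2+/+ libraries, which reach 0.491 CPM.

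Few genes differed between Etv2+/Δ and Etv2+/+ by more than the spread of the libraries. Of 18477 genes, 5 differed at an adjusted p under 0.05 (limma, Benjamini-Hochberg over all genes), which is 0.0271% of those tested. Ramac was higher in Etv2+/Δ, which is 0.00541%, and Ftl2-ps, Gm13365, Hbb-bh0 and Slc25a30 were lower, which is 0.0216%. Without adjustment, 1069 genes had a p under 0.05, 5.79% of all, and 5% or 924 would be reached by p-values spread evenly. They divided into 498 higher (2.7%) and 571 lower (3.09%). The median difference over all genes was 0.00, and 11607 of the 12637 genes with a mean of at least 1 CPM in Etv2+/+ (91.8%) differed by less than 0.5 in log2(CPM + 1). Between the 6 and 6 libraries, 19 of the 18477 genes were higher and 27 lower with no overlap. Random assignment of the 12 libraries separates the groups at a gene with a probability of 0.00216 (exact permutation over 924 assignments). Together these counts are near that share of all genes, so that no overlap alone does not mark a difference.

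**Figure D2:**
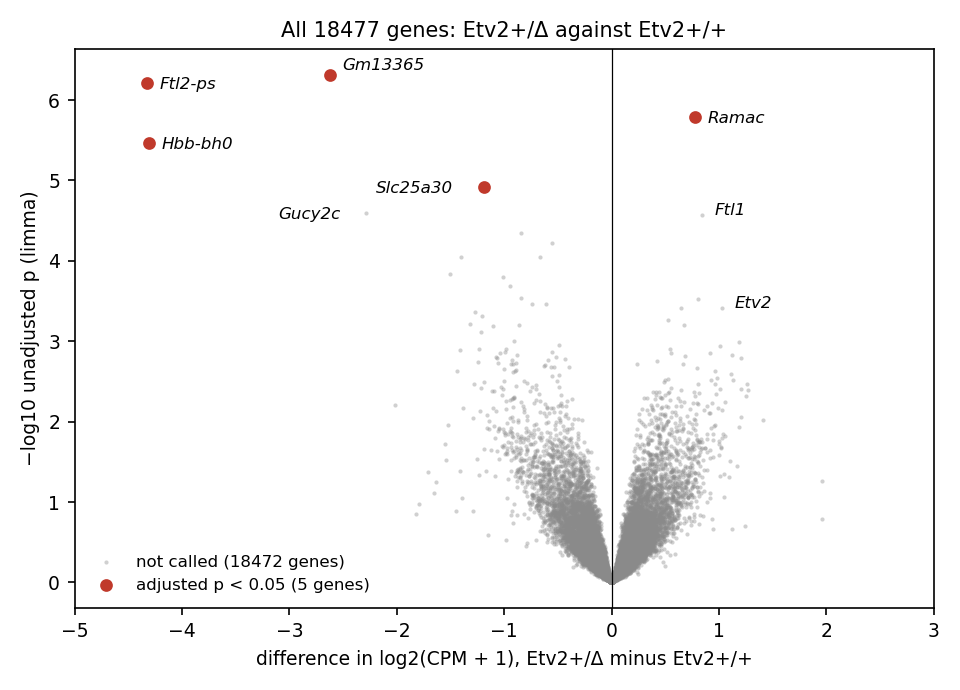
Difference in log2(CPM + 1), Etv2+/Δ minus Etv2+/+, on the x axis against −log10 of the unadjusted limma p on the y axis for all 18477 genes. The 5 genes called are in red, with 4 to the left and Ramac to the right, and Gucy2c, Ftl1 and Etv2 are named among the genes not called.

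Slc25a30, which encodes a carrier of the inner mitochondrial membrane, was called lower, and no near-identical copy of it was found in the reference. It lies on the minus strand at chr14:76161806-76186844. Etv2+/+ replicates 1 to 6 held 11.6, 24.3, 17.2, 25.4, 21.7 and 15.7 CPM, and Etv2+/Δ replicates 1 to 6 held 5.93, 8.501, 7.61, 7.76, 6.46 and 10.0 CPM. No Etv2+/Δ library reached the lowest Etv2+/+ library. Its mean fell from 19.3 ± 5.42 to 7.71 ± 1.46 CPM (SD, n = 6 and 6), a log2 difference of -1.18 (SE 0.23, limma adjusted p = 0.0444). Levels in Etv2Δ/Δ, with no intact copy of Etv2, were 10.3 to 28.6 CPM, above all 6 Etv2+/Δ libraries, and those in Etv2enhΔ/Δ were 15.7 to 25.4 CPM. It was called in 2 of the 12 fits that left out 1 library of the comparison, and the adjusted p reached 0.278 in the others.

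Hbb-bh0, a row of the beta-globin cluster that is annotated as a pseudogene, gave the largest drop in CPM of the genes called. It is a single annotated stretch of 129 bases on the minus strand of chr7:110998534-110998662, shown because it is all that this row counts, with no part in capitals:
Hbb-bh0: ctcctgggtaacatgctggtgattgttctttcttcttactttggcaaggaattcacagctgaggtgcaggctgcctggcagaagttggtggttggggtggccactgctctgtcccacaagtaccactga
Etv2+/+ replicates 1 to 6 held 60.1, 176, 166, 206, 264 and 190 CPM, and Etv2+/Δ replicates 1 to 6 held 0.137, 0, 0, 43.7, 66.8 and 47.1 CPM. Replicates 1 to 3 of Etv2+/Δ were at or near 0 and replicates 4 to 6 were near the lowest Etv2+/+ library, which replicate 5 exceeded. The log2 difference was -4.31 (SE 0.77, limma adjusted p = 0.0156). Hbb-bh1, the embryonic beta-like globin counted from a separate row, did not follow that division: it stood at 72.0, 306 and 169 CPM in Etv2+/Δ replicates 1 to 3 and at 70.2, 102 and 82.8 CPM in replicates 4 to 6. Hbb-bh0 over Hbb-bh1 was 1.05 to 1.20 in Etv2+/+ replicates 2 to 6, 0.490 in Etv2+/+ replicate 1, 0.569 to 0.652 in Etv2+/Δ replicates 4 to 6 and 0.00190 or less in Etv2+/Δ replicates 1 to 3. In Etv2enhΔ/Δ, which also has 1 Δ allele, the ratio was 0.476 to 1.37. Hbb-bh0 was called in 6 of the 12 fits that left out 1 library, with an adjusted p of up to 0.0980 in the others.

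Ftl2-ps and Ramac align over most of their length to other genes, and Gm13365 aligns to another gene in short pieces. How reads were placed among these copies was not tested. Ftl2-ps is a processed pseudogene of the ferritin light chain on the plus strand of chr4:125181532-125182083, within the gene Grik3. The last coding exon of Ftl1, on the minus strand of chr7:52713477-52713653, and the matching stretch of Ftl2-ps, at chr4:125181907-125182083, are shown because they differ at 4 of 177 bases, in capitals:
Ftl1 coding exon: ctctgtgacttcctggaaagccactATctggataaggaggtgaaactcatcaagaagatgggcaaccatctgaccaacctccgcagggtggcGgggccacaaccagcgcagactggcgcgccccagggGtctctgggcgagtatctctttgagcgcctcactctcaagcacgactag
Ftl2-ps: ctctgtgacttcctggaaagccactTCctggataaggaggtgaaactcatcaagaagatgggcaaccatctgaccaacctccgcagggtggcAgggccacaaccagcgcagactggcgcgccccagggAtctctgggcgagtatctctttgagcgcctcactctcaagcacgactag
Ftl2-ps stood at 0.181 CPM in Etv2+/+ replicate 1, at 36.5 to 45.5 CPM in replicates 2 to 6 and at 0 to 0.248 CPM in the 6 Etv2+/Δ libraries. The difference of -4.32 (SE 0.70, limma adjusted p = 0.00571) thus came from 5 Etv2+/+ libraries, and Etv2+/+ replicate 1 was with the Etv2+/Δ libraries. Ftl1, which encodes the light chain of the iron store ferritin, ran the other way: 74.7 CPM in Etv2+/+ replicate 1, 30.9 to 43.2 CPM in replicates 2 to 6 and 69.8 to 97.5 CPM in Etv2+/Δ, a difference of 0.84 that was not called (limma adjusted p = 0.0707). Summed over the 7 rows of the ferritin light chain family, the groups overlapped, at 75.7 to 88.9 CPM in Etv2+/+ and 71.3 to 98.9 CPM in Etv2+/Δ, with a difference of -0.03 (limma adjusted p = 0.999).

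Gm13365, also annotated as a pseudogene, lies on the plus strand of chr2:15318377-15319343. It aligns in pieces of 119 to 176 bases to exons of Ldha, the lactate dehydrogenase A gene, at 91.5 to 95.8% identity. It stood at 0.181 CPM in Etv2+/+ replicate 1, at 6.24 to 10.1 CPM in replicates 2 to 6 and at 0 to 0.182 CPM in Etv2+/Δ, a difference of -2.62 (SE 0.42, limma adjusted p = 0.00571). The libraries with and without its reads were the same as for Ftl2-ps. Summed with Ldha the difference was -0.11 (limma adjusted p = 0.973), at 1490 to 2295 CPM in Etv2+/+ and 1489 to 1901 CPM in Etv2+/Δ.

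Ramac, which encodes the activating subunit of the mRNA cap methyltransferase, was the only gene called higher. It lies on the plus strand of chr7:88907811-88914377. Etv2+/+ replicates 1 to 6 held 22.4, 12.4, 17.9, 20.4, 17.2 and 17.5 CPM, and Etv2+/Δ replicates 1 to 6 held 34.8, 26.5, 33.2, 31.3, 25.9 and 34.4 CPM. The groups did not overlap, the mean was 1.73-fold higher and the log2 difference was 0.78 (SE 0.13, limma adjusted p = 0.00993). Levels in Etv2Δ/Δ were 29.7 to 38.0 CPM, and those in Etv2+/enhΔ were 16.9 to 19.9 CPM. Etv2enhΔ/Δ, with 1 Δ allele, stood at 21.0 to 28.3 CPM and overlapped Etv2enhΔ/enhΔ, with none, at 20.3 to 25.2 CPM. Ramac shares over 93% of its transcript, at 96.2 to 99.3% identity, with Gm9830, Gm10767 and an unannotated stretch of chromosome 7. Summed over the 3 annotated rows the groups still did not overlap (19.3 to 30.9 CPM against 33.2 to 41.3 CPM), but the difference of 0.56 was no longer called (limma adjusted p = 0.0707). Etv2+/+ replicate 1 was the highest Etv2+/+ library for Ramac and the lowest for Hbb-bh0, Slc25a30, Ftl2-ps and Gm13365.

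**Figure D3:**
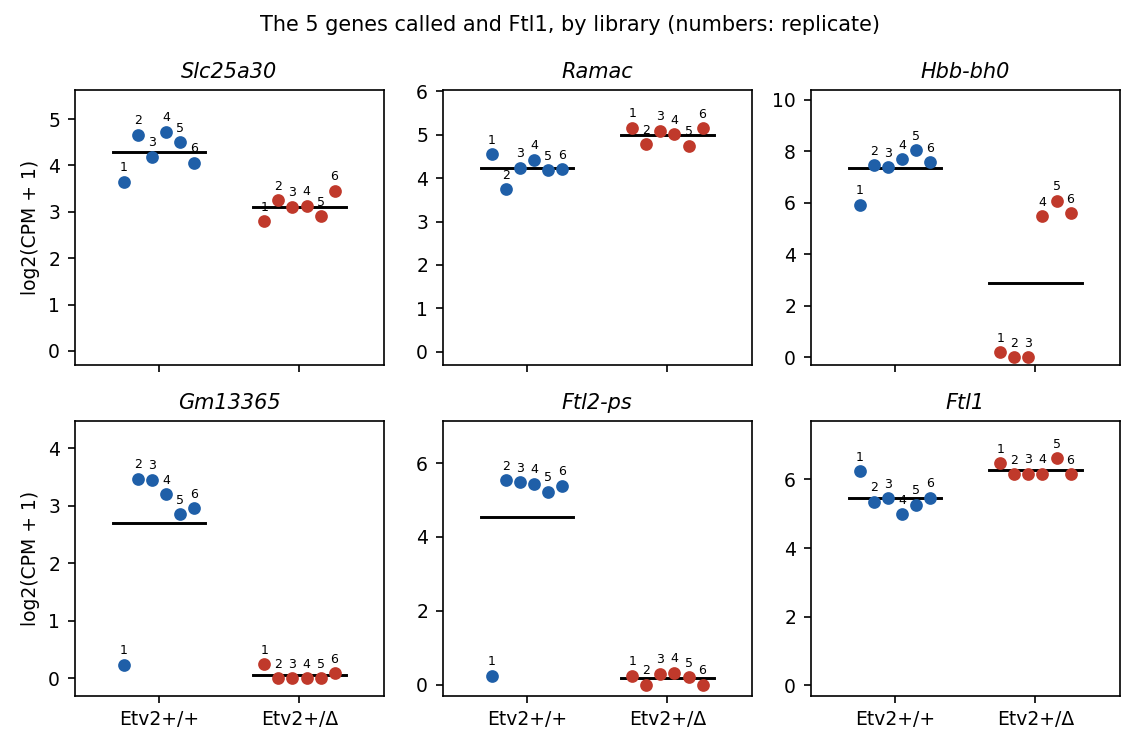
The 5 genes called and Ftl1, in log2(CPM + 1) on the y axis, in the 6 Etv2+/+ libraries (blue) and the 6 Etv2+/Δ libraries (red), with replicate numbers beside the points and lines at the group means. Etv2+/+ replicate 1 lies with the Etv2+/Δ libraries for Ftl2-ps, Gm13365 and Ftl1, and Hbb-bh0 divides Etv2+/Δ into replicates 1 to 3, at or near 0, and replicates 4 to 6.

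None of the 5 calls held under every setting. With a term for libraries with or without Ftl2-ps reads no gene was called (561 at an unadjusted p under 0.05). That term was set from a called gene, so the calls of Ftl2-ps and Gm13365 had to be lost. It marked Etv2+/+ replicates 2 to 6 and no Etv2+/Δ library, so this fit can hardly tell the division from the genotype. Under it the differences were -3.96 for Hbb-bh0, -0.78 for Slc25a30 and 0.53 for Ramac. None was called without the 2 Etv2+/Δ libraries whose labelled sex did not match their reads (1020 at an unadjusted p under 0.05), nor when the 12 libraries alone set the spread (1155). Those 2 libraries also had the fewest reads and the highest mitochondrial shares of the 12. Leaving them out does not separate these properties from the mismatch of sex. Without Etv2+/+ replicate 1, which stood with the Etv2+/Δ libraries for Ftl2-ps and Gm13365, 12 genes were called. Without the 2 Etv2Δ/Δ libraries of mismatched sex 5 genes were called, of which 4 were among the 5 above. Without Etv2+/Δ replicate 1, Ftl2-ps and Gm13365 alone were called. Leaving out Etv2+/Δ replicate 2 or 3 or Etv2+/+ replicate 2 or 4 gave 3 genes each.

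Below the threshold, the genes with the smallest p-values were of mixed function. Gucy2c, the guanylate cyclase receptor of guanylin peptides, was at 2.35 to 14.5 CPM (median 5.30) in Etv2+/+ and 0 to 1.13 CPM (median 0.392) in Etv2+/Δ, with no overlap and a difference of -2.29 (limma adjusted p = 0.0707). It did not follow the number of intact Etv2 copies, since Etv2Δ/Δ, at 1.10 to 10.6 CPM, overlapped Etv2+/+. Adi1, an enzyme of methionine salvage, stood at 131 to 230 CPM against 82.9 to 127 CPM, with no overlap (-0.66, limma adjusted p = 0.152). Mbd4, a DNA repair glycosylase, stood at 19.8 to 52.3 CPM against 8.71 to 18.7 CPM (-0.95, limma adjusted p = 0.269). Nudt13, a Nudix hydrolase, stood at 1.69 to 2.87 CPM against 0.128 to 1.46 CPM (-1.01, limma adjusted p = 0.226). The groups did not overlap at any of these 3 genes, and none of them was called. In the other direction, Nol9, a kinase of ribosomal RNA processing, stood at 115 to 159 CPM in Etv2+/+ and 179 to 414 CPM in Etv2+/Δ (0.68, limma adjusted p = 0.439), and its range in each of the other 4 genotypes lay at 190 CPM or below. Gnpda1, an enzyme of amino sugar breakdown, stood at 21.5 to 52.8 CPM against 42.3 to 88.6 CPM (0.81, limma adjusted p = 0.348).

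Whether a halving could be excluded varied with the level of the gene. On the log2(CPM + 1) scale a halved mean gives a difference of less than 1, most of all in low genes, so the value that a halved Etv2+/+ mean would give was worked out for each gene and set against the 95% interval of its difference. The interval lay above a halving for 10703 of 18477 genes. Among the 2145 genes with a mean of at least 100 CPM in Etv2+/+ that was 99.3%, among the 4350 from 20 to 100 CPM it was 98.0% and among the 3326 from 5 to 20 CPM it was 79.3%. At 1 to 5 CPM it was 37.7% and below 1 CPM 10.5%, so that a halving was not excluded for most such genes. The part of read depth in this was not tested. Median standard errors of the difference were 0.11, 0.17, 0.27, 0.35 and 0.20 in the same order.

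No endothelial gene was called lower in Etv2+/Δ. None of the 22 endothelial transcription factors and none of the 38 endothelial receptors, junction proteins and surface proteins that were measured was called, beside 0.0271% of all genes. Medians of the differences were 0.05 and 0.18, beside 0.00 over all genes, and 28 of the 38 surface and junction genes were positive. For 35 of these 38 genes and 15 of the 22 transcription factors the interval lay above a halving. The Ets factors Fli1 and Ets1 stood at 28.7 to 44.6 and 44.3 to 76.7 CPM in Etv2+/+ and at 32.8 to 43.8 and 42.9 to 58.8 CPM in Etv2+/Δ, with differences of 0.02 (95% interval -0.34 to 0.38) and -0.08 (-0.36 to 0.20). Both ranges in Etv2+/Δ lay close to or inside those of Etv2+/+. Kdr, the VEGF receptor of endothelium and its progenitors, stood at 66.7 to 116 CPM (median 106) against 96.0 to 196 CPM (median 126), a difference of 0.40 (95% interval 0.11 to 0.69, limma adjusted p = 0.761). Cdh5, the endothelial cadherin, stood at 60.8 to 95.7 against 75.5 to 121 CPM, a difference of 0.09 (95% interval -0.44 to 0.63). Pecam1, a junction protein, stood at 17.8 to 32.7 against 17.3 to 48.2 CPM (0.38, 95% interval -0.10 to 0.86). These genes overlapped between the groups, and each interval excluded a halving. Flt4, the receptor of lymphatic growth factors that early endothelium also makes, had a difference of 0.63, Hhex, a homeobox factor of endothelium and endoderm, had 0.80, Erg, an Ets factor, had 0.61 and Klf2, a factor induced by flow, had -0.92, and none was called. Set against these values, Etv2Δ/Δ held 0 to 3.92 CPM of Cdh5, 0.261 to 1.95 CPM of Fli1 and 0 to 1.95 CPM of Erg. In bulk yolk sac, fewer cells of a type and less RNA per cell cannot be told apart.

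Blood transcription factors were not called either. Of 14 measured, 10 had negative differences, none had an unadjusted p under 0.05, and the median was -0.21. That count depended on the setting. Members with an unadjusted p under 0.05 and a negative sign became 3 with the 12 libraries alone and 4 with voom weights. They were also 3 without the 2 Etv2+/Δ libraries of mismatched sex. Over the alternative settings the median ranged from -0.28 to -0.11. Tal1, which starts the blood program, stood at 47.8 to 117 CPM (median 80.6) in Etv2+/+ and 57.1 to 111 CPM (median 71.5) in Etv2+/Δ, a difference of -0.15 (95% interval -0.62 to 0.32). Gata1, the main factor of red cell genes, stood at 17.2 to 25.2 CPM against 8.63 to 23.2 CPM, a difference of -0.41 (-0.90 to 0.08). Gfi1b, a repressor needed for red cells and platelets, stood at 7.85 to 25.7 CPM against 5.83 to 17.0 CPM, a difference of -0.53 (-1.22 to 0.16). All 3 overlapped between the groups, and a halving lay outside the interval for Tal1 and Gata1 but inside it for Gfi1b. Ikzf1 and Runx1 had differences of -0.09 and 0.12. For comparison, Gata1 reached 2.39 to 5.64 CPM in Etv2enhΔ/Δ and 0 to 0.396 CPM in Etv2Δ/Δ.

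**Figure D4:**
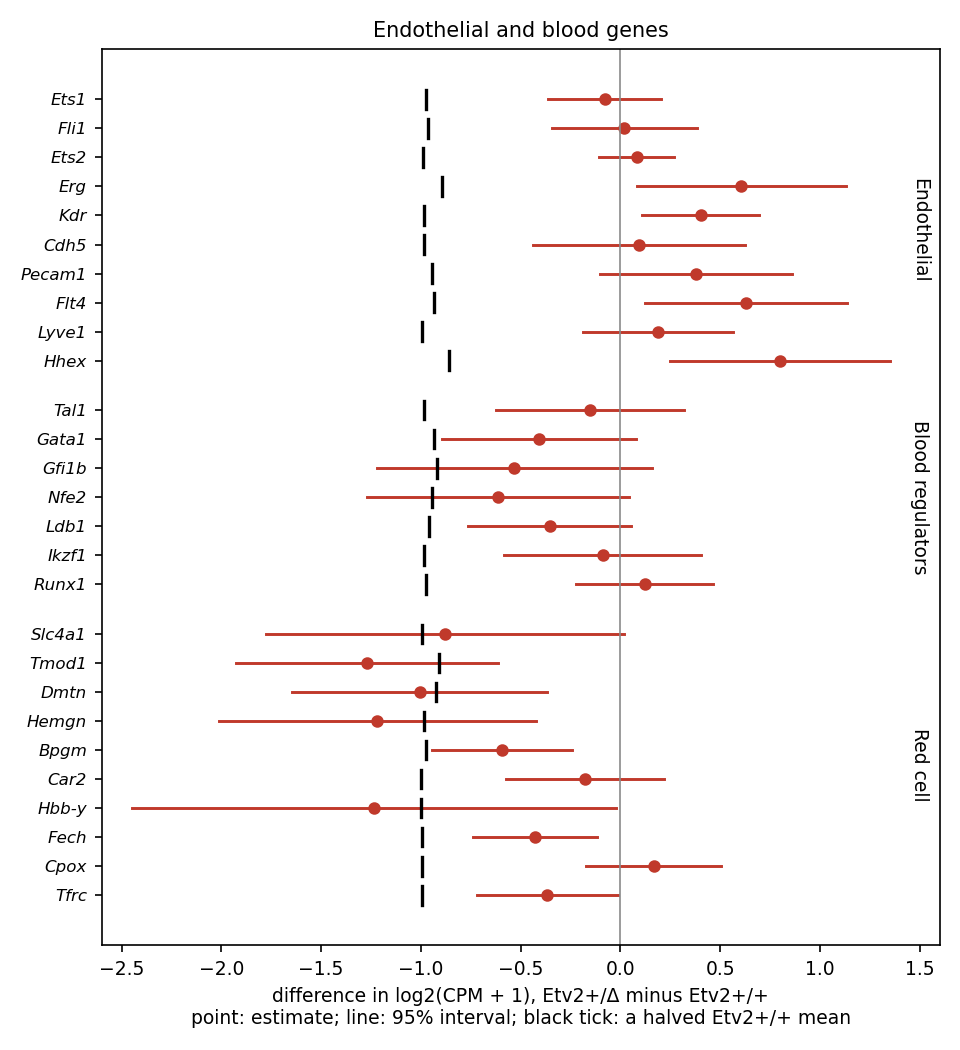
Difference in log2(CPM + 1), Etv2+/Δ minus Etv2+/+, for 27 endothelial, blood and red cell genes, with points for estimates, lines for 95% intervals and black ticks at the value that a halved Etv2+/+ mean would give. The interval of Cdh5 runs from -0.44 to 0.63 and stops short of its tick, while that of Tmod1 runs from -1.93 to -0.61 and crosses it.

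Genes of the red cell membrane and skeleton tended to lower levels, although no member was called. Of 19 measured, 17 had negative differences, the median was -0.47 beside 0.00 over all genes, and 7 had an unadjusted p under 0.05 with a negative sign, beside 3.09% of all genes. Tmod1, which caps the short actin filaments of the skeleton, held 17.2, 16.2, 23.4, 9.07, 11.2 and 9.57 CPM in Etv2+/+ replicates 1 to 6 and 2.14, 5.67, 2.999, 8.997, 5.08 and 9.30 CPM in Etv2+/Δ replicates 1 to 6. Etv2+/Δ replicate 6 alone reached the lowest Etv2+/+ library. Its difference was -1.27 (SE 0.32, limma adjusted p = 0.375). Dmtn, which bundles actin at the membrane, stood at 12.3 to 22.1 CPM against 3.16 to 11.3 CPM, with no overlap and a difference of -1.005 (limma adjusted p = 0.704). Ermap, a membrane protein of red cells, had a difference of -1.16, Cldn13 -0.92, the blood group protein Kel -0.84 and Xk, the partner of Kel, -0.48. Slc4a1, the anion exchanger, stood at 163 to 423 CPM against 93.0 to 372 CPM (-0.88, 95% interval -1.78 to 0.02). Epb41, protein 4.1, differed by -0.08 and Gypc, glycophorin C, by 0.08, so that the list did not move as 1. Summed over the 19 members, Etv2+/+ replicates 1 to 6 held 1078, 1643, 1282, 1625, 1863 and 1255 CPM, and Etv2+/Δ replicates 1 to 6 held 846, 1515, 1123, 1045, 1173 and 846 CPM. Etv2+/Δ replicate 2 was within the upper part of the Etv2+/+ range, and Etv2+/+ replicate 1 was within the Etv2+/Δ range. Over the alternative settings the median of the list ranged from -0.67 to -0.36. The 7 members with an unadjusted p under 0.05 became 2 with a term for the Ftl2-ps division, 4 without Etv2+/Δ replicate 6, 11 without the 2 Etv2+/Δ libraries of mismatched sex and 11 with voom.

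Hbb-y varied several-fold within each genotype. Beside Hbb-bh0, called lower, 9 globin rows were measured and none of them was called, with 8 of all 10 negative and a median of -0.50. Over the alternative settings the median ranged from -0.91 to -0.31. The 2 globin rows with an unadjusted p under 0.05 and a negative sign became 1 to 6. Hbb-y, the main embryonic beta-like globin, held 515, 3809, 1364, 3196, 3653 and 1318 CPM in Etv2+/+ replicates 1 to 6 and 431, 2441, 627, 685, 1040 and 558 CPM in Etv2+/Δ replicates 1 to 6. The groups overlapped, and the difference of -1.24 (SE 0.59, limma adjusted p = 0.854) was not called. Hba-x, the embryonic alpha-like globin, stood at 406 to 769 CPM against 247 to 722 CPM, a difference of -0.65. Hbb-bt, an adult globin, had 0.42 and Hbb-bh2 had 0.60. Near-identical copies of globin rows other than Hbb-bh0 were not searched for, so that the split of reads among them is uncertain.

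Among the other red cell lists, 11 of 13 further erythroid genes, 8 of 10 genes of heme synthesis and 7 of 11 genes of iron uptake and delivery had negative differences, with medians of -0.23, -0.15 and -0.05 and no call. Bpgm, which makes the glycolytic metabolite that lowers the oxygen affinity of haemoglobin, stood at 41.5 to 70.6 against 28.2 to 48.2 CPM (-0.59, SE 0.17, limma adjusted p = 0.606). Hemgn, a nuclear protein of blood cells, stood at 57.2 to 134 against 18.6 to 105 CPM (-1.22, SE 0.39, limma adjusted p = 0.726). Fech, the last enzyme of heme synthesis, stood at 224 to 343 against 142 to 308 CPM (-0.43), and Tfrc, the transferrin receptor, at 307 to 487 against 260 to 391.8 CPM (-0.37). For all 10 heme synthesis genes the interval excluded a halving, whereas it did so for 8 of 19 genes of the red cell membrane and 2 of 10 globins.

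**Figure D5:**
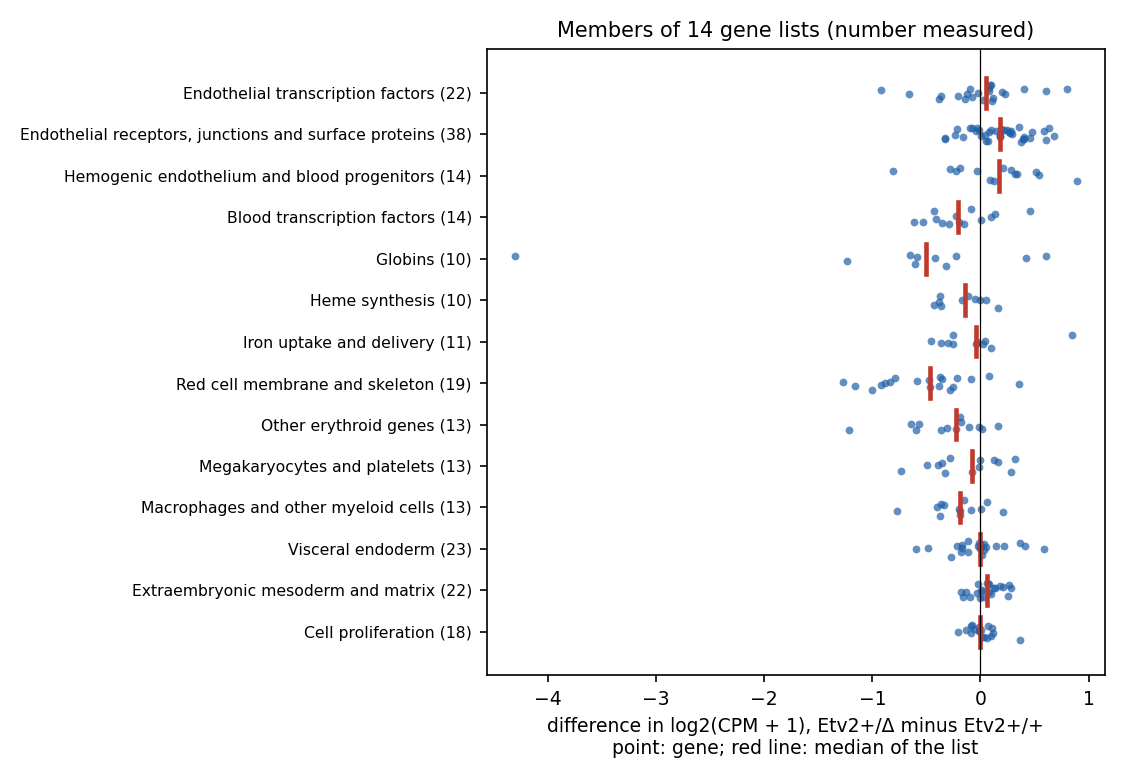
Differences in log2(CPM + 1), Etv2+/Δ minus Etv2+/+, of the measured members of 14 gene lists on the x axis, with points for genes and red lines for list medians. The median is -0.47 for genes of the red cell membrane and skeleton, 0.18 for endothelial surface and junction genes and 0.00 for cell proliferation genes.

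Markers of most remaining cell types of the yolk sac had medians near that of all genes. Visceral endoderm (23 genes, median -0.01), extraembryonic mesoderm and matrix (22 genes, median 0.06), parietal endoderm (11 genes, median -0.03) and megakaryocytes (13 genes, median -0.08) held no called gene. Macrophage genes had a median of -0.19, with 10 of 13 negative, 2 with an unadjusted p under 0.05 and none called. Cell proliferation genes had a median of 0.00, and for all 18 of them the interval excluded a halving. Genes of the hypoxia response were negative in 13 of 14 cases by small amounts, with a median of -0.12, and none had an unadjusted p under 0.05. Markers of tissue from outside the yolk sac were low in both groups. Heart muscle genes summed to 29.1 to 187 CPM in Etv2+/+, highest in replicate 1, and 21.5 to 201 CPM in Etv2+/Δ, highest in replicate 6. Neural genes summed to 24.1 to 39.6 against 16.2 to 47.8 CPM, and trophoblast and decidua genes to 15.6 to 29.6 against 13.6 to 30.01 CPM. These ranges overlapped, and the part of such cells in the differences above was not tested.

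Genes that depend on Etv2 were picked by contrasts between groups that the comparison did not use, but not independently of it. Gene variances and the sex term came from the fit of all 31 libraries, with the 12 of the comparison included. Etv2Δ/Δ was lower than Etv2enhΔ/Δ at 620 genes, 3.36% of all (limma adjusted p under 0.05). Without Etv2Δ/Δ replicates 1 and 2, whose labelled sex did not match their reads, it was 416 genes, of which 391 were among the 620. In Etv2+/Δ against Etv2+/+, 312 of these 620 were negative and 308 positive, the median was 0.00, 1 was called (Hbb-bh0), and for 517 the interval excluded a halving. Etv2enhΔ/Δ was lower than Etv2enhΔ/enhΔ at 186 genes, 1.01% of all. In Etv2+/Δ against Etv2+/+ 113 of these were negative, the median was -0.05, none was called, 16 had an unadjusted p under 0.05 with a negative sign and none with a positive sign, beside 3.09% and 2.7% of all genes, and for 160 the interval excluded a halving. A further step down was seen at 37 genes, which were lower in both contrasts. Of these 37, 33 were negative in Etv2+/Δ, with a median of -0.26, and Dmtn, Hemgn, Ermap, Ssx2ip, Trim10 and Tfrc had an unadjusted p under 0.05, but none was called. Of the 37, 18 were in the red cell or blood lists above. Both contrasts share the Etv2enhΔ/Δ libraries, so that the 37 genes are a description of them. When 1 library of the comparison was left out, the 620 genes became 588 to 655 and the 186 became 171 to 194. Those libraries are in neither contrast. With the share of mitochondrial reads as a term, the 620 became 578 but the 186 became 13. That share was 10.5 to 20.9% in Etv2enhΔ/enhΔ and 7.55 to 10.2% in Etv2enhΔ/Δ. The 37 genes, picked partly by the second contrast, share this limit.

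Lists that the study made from these same libraries are not independent evidence of direction. Of its 204 dose-sensitive genes, 163 were negative in Etv2+/Δ against Etv2+/+, with a median of -0.25 and none called. Of these, 35 had an unadjusted limma p under 0.05 with a negative sign and none with a positive sign. Over all genes these shares were 3.09% and 2.7%. Of its 433 dose-insensitive genes, 217 were negative, with a median of 0.00 and none called. Such a p was found with a negative sign at 21 of them and with a positive sign at 29. Its cluster 3, of 77 genes, had a median of -0.17 and its cluster 5, of 338 genes, one of -0.04. Hbb-bh0 was called in the first, and Ftl2-ps and Gm13365 were called in the second, beside 0.0271% of all genes.

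The effect of the Δ allele over a wild-type copy was set against its effect over an enhancer-deleted copy, (Etv2enhΔ/Δ minus Etv2enhΔ/enhΔ) minus (Etv2+/Δ minus Etv2+/+). These 2 differences share no library. They differed at 16 genes, 0.0866% of all, with 11 above and 5 below 0 (limma, adjusted p under 0.05), and at 2116 genes without adjustment. Slc38a5, an amino acid transporter, averaged 14.01 CPM in Etv2+/+ (9.36 to 17.0), 13.98 CPM in Etv2+/Δ (10.1 to 19.8), 14.8 CPM in Etv2enhΔ/enhΔ (11.4 to 23.0) and 2.57 CPM in Etv2enhΔ/Δ (1.29 to 3.31). The first 3 of these groups overlapped and Etv2enhΔ/Δ lay below them, and the difference between the effects was -2.13 (SE 0.34, limma adjusted p = 0.0122). Matrix collagens went the other way: Col1a1 averaged 83.0, 90.6, 44.0 and 301 CPM in the same order (2.84, limma adjusted p = 0.0470) and Col3a1 35.5, 38.6, 29.4 and 162 CPM (2.32, limma adjusted p = 0.0394). In each of these 3 genes the Δ allele over a wild-type copy gave a difference that rounds to 0.01 or 0.00, none of them called. No gene passed with a term for the Ftl2-ps division, with the share of mitochondrial reads as a term or without the 2 Etv2+/Δ libraries of mismatched sex, and leaving out 1 library of the 4 groups gave 0 to 58 genes and changed the count by more than 1.5 times for each of the 22 libraries, with Slc38a5 among those called in 20 of 22 such fits.

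Genes around Etv2 on chromosome 7 were examined because the Δ allele travels with its neighbours. None of the 16 measured genes within 100 kb of Etv2 was called. Proser3 (0.75), Cox6b1 (-0.32) and Atp4a (0.29) had an unadjusted p under 0.05. These 3 are 18.8% of the 16, and within 1 Mb of Etv2 6 of 62 genes (9.68%) had such a p. Over chromosome 7, 97 of 1311 genes (7.40%) had an unadjusted p under 0.05, beside 5.79% of all genes and 8.38% on chromosome 16, the highest share of any autosome, and 2 were called, Hbb-bh0 and Ramac.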

How the data were processed

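Total RNA of single E8.5 yolk sacs was made into libraries with the Trio RNA-seq kit from 10 ng of RNA. Per the labels and methods, reads were checked with FastQC, aligned to mm9 with STAR 2.5.2a and counted per Ensembl gene with featureCounts (Subread). The authors normalised detectable genes with edgeR and deposited log2(CPM + 1) values, so genes without detectable reads are not in the table. The 9 columns of the authors' own tests (fold changes, mean levels, test scores, p-values) were not used. Each value was a whole multiple of 1 read within 0.01, which gave reads per library. One read was worth 0.0677 to 0.181 CPM in Etv2+/+ and 0.0456 to 0.258 CPM in Etv2+/Δ. Whether counting used strand is not given in the sources used here.

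Genotypes and replicate numbers came from the labels. Differences were fitted with limma 3.58.1 (R 4.3.3) on the deposited log2 values, with a trend in the variance, all 31 libraries, and genotype and labelled sex as terms (24 residual degrees of freedom), and p-values were Benjamini-Hochberg adjusted over 18477 genes. No filter on low values was applied. Fold differences on this scale understate changes of low genes. Exact permutation tests used scipy 1.17.1 (Python 3.11.15). The script was tested on simulated data. Near-identical copies were aligned stretches of at least 100 bases at 90% identity to the mm9 reference, and sequences were read from that genome.

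Genes named were Etv2, every gene called, the 8 smallest p-values in each direction, the examples the study shows, Ftl2-ps and Xist, and 2 to 3 members of each list, with further members given as values, chosen after they were seen. A few genes are not reported here. The members and lists were chosen with earlier results of these data known. Alternatives tried were other terms, scalings, weights (voom), pseudocounts, filters and libraries, of which the per-gene halving, the sums over copies, the fit without 2 Etv2Δ/Δ libraries of mismatched sex and the wider settings of the difference between effects were chosen after seeing the data. Replicate numbers did not pair the libraries. The correlations for same-numbered Etv2+/+ and Etv2+/Δ libraries were -0.0848 to 0.0853 over 10502 genes. These are not correlations of the levels themselves, which were close in both groups at most genes. Each replicate is a separate yolk sac. Limits at 0 reads cover counting error only, whereas the 95% intervals of differences come from limma and carry the spread between yolk sacs.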

Additional observations from a re-analysis of the deposited data

Results flagged for a closer look

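Single libraries stood far from the rest of their group in 5 cases, among 38 groups of library values tested, of which chance gives about 1 in 20. Etv2 in Etv2+/Δ replicate 6 was at 3.59 CPM, beside 0.729 to 1.55 CPM in the other 5 libraries. In log2(CPM + 1), Etv2+/+ replicate 1 was at 0.24 for Ftl2-ps, beside 5.23 to 5.54, at 0.24 for Gm13365, beside 2.86 to 3.47, and at 5.93 for Hbb-bh0, beside 7.39 to 8.05. Etv2+/Δ replicate 1 was at 0.24 for Gm13365, beside 0 to 0.09. The Etv2+/Δ libraries held 5 reads of Gm13365 in all, so this last case rests on very few reads.

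The effect of the Δ allele differed between a wild-type and an enhancer-deleted partner at 16 genes (limma interaction, adjusted p under 0.05). Among them, the differences in log2(CPM + 1) were -2.13 for Slc38a5, -1.66 for Ptprz1, -1.40 for Cecr2 and -0.64 for Kpna3. They were 2.84 for Col1a1, 2.32 for Col3a1, 1.86 for Gpx3, 1.42 for Mdk, 1.25 for Arpc1b, 1.17 for Aplp2, 0.96 for Parva, 0.92 for Itga3, 0.81 for Ckap4, 0.80 for Creb3l1 and 0.67 for Scpep1. Over a wild-type copy, the Δ allele gave a difference of -0.42 for Arpc1b (unadjusted p = 0.0160) and 0.79 for Ptprz1 (unadjusted p = 0.00215), the latter at a mean of 0.131 CPM in Etv2+/+ and 1.06 CPM in Etv2+/Δ.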

How the results depend on the processing

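The count of 5 genes became 0 with the 12 libraries alone, 0 with an Ftl2-ps term, 0 without the 2 Etv2+/Δ libraries of mismatched sex and 3 at an adjusted p under 0.01, with 2 to 12 when 1 library was left out. The difference between effects (16 genes) gave 69 with a mean log2 of at least 1, 3 with voom, 32 with quantile normalization, 4 with the replicate block, 0 with the Ftl2-ps term, 0 with the mitochondrial term, 0 without these 2 libraries, 28 without the 2 Etv2Δ/Δ libraries of mismatched sex and 0 to 58 with 1 library left out. With the replicate block the comparison called 4 genes, without Slc25a30. Members of gene lists called (1) became 0 with the 12 libraries alone, 2 with the filter, 0 with the Ftl2-ps term, 0 without the 2 Etv2+/Δ libraries of mismatched sex and 0 to 2 with 1 library left out. Genes with an interval above -1 were 17043, 11238 with the filter and 10703 with a halving set per gene. Genes lower in Etv2enhΔ/Δ than in Etv2enhΔ/enhΔ (186) were 283 with the filter and 13 with the mitochondrial term. Of 2144 values of named genes under alternatives, sums over copies included, 2091 kept direction and side of the threshold, 41 lost the call, 12 gained it and 0 reversed. A halving was excluded least often for genes below 5 CPM.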
